A study of Mus musculus with 12 samples.

Results

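Transcripts of the axon guidance ligands and receptors were followed through iron restriction and loss of the ferritin cargo receptor NCOA4 in HT22 cells, an immortalized cell line derived from mouse hippocampus. Members were chosen by gene symbol: semaphorins of classes 3 to 7, plexins, neuropilins, ephrins, Eph receptors, Slits, Robos, netrins, Unc5 receptors and Dcc. The symbols matched 72 of 24347 entries. Of these, 69 were guidance genes, while Unc50, Unc5cl and the antisense transcript Plxna4os1 only shared the start of a name and were described apart, the last of them set apart after the values had been seen. Of the 69, 35 reached 0.5 FPKM in at least 3 of 12 libraries and were tested, 19 of them ligands and 16 receptors. FPKM counts fragments relative to transcript length and to the mapped fragments of each library. Levels of different genes are set side by side below only as listed.

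The 12 libraries formed 4 groups of 3 biological replicates. All cells were transfected by liposomes, either with control siRNA (siControl) or with Ncoa4 siRNA (siNCOA4) and were kept at normal iron or exposed to the iron chelator deferoxamine (DFO) at 100 µM for 24 h (siControl+DFO, siNCOA4+DFO). The culture was a single line, and the labels call it hippocampal neuron cells. Of 23 neuron markers, however, 20 stayed below the filter, with none of those above 0.554 FPKM, and Rbfox3, Map2, Snap25 and Dcx were at or near 0. The 3 that passed were Tubb3, Ncam1 and Camk2a, with means of 8.24, 22.3 and 0.553 FPKM. Of 12 mesenchymal markers, 11 passed the filter and none was at 0 in all libraries. Of 7 astrocyte markers 3 passed, with Slc1a3 and Gja1 at means of 42.1 and 25.3 FPKM in siControl. Among microglia, oligodendrocyte and endothelial markers, 1 of 7, 1 of 7 and 1 of 6 passed. Tmem119, of the microglia list, had a mean of 10.7 FPKM in siControl. The cells are called HT22 below.

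Guidance molecules steer growing axons and migrating cells by attraction or repulsion. Secreted class 3 semaphorins bind neuropilins, which have short cytoplasmic tails and pass the signal through plexins. Ephrins are anchored in the membrane and bind Eph receptor tyrosine kinases on neighbouring cells, with signals running both ways. Slits bind Robo receptors, and netrins bind Dcc and Unc5 receptors. In the hippocampus these systems help to sort afferents by layer and shape dendritic spines, and outside the nervous system the same genes act in blood vessels, epithelia and mesenchyme.

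Ncoa4, the target of the siRNA, was 6.02 to 6.46 FPKM in siControl libraries and 0.770 to 0.952 in those of siNCOA4. Under DFO it lay between 7.52 and 8.70 in siControl+DFO and between 0.850 and 1.57 in siNCOA4+DFO, so that the groups followed their labels. Total counts were not part of the tables analysed. The relative depth read from the steps between low FPKM values differed by at most 1.52 times between libraries. The summed level of the mesenchymal markers was 5513 to 6060 FPKM in siControl, 4787 to 5174 in siNCOA4, 2984 to 3058 in siControl+DFO and 2778 to 3308 in siNCOA4+DFO. Genes of high level weigh most in this sum, and they moved unevenly. From siControl to siControl+DFO, mean S100a4 passed from 2240 to 894 FPKM and Col1a2 from 1002 to 318. Vim passed from 1600 to 1412 and Fn1 from 280 to 232. The part of these markers in the changes described here was not tested. The study reported changed shape and compromised viability of HT22 cells given both Ncoa4 siRNA and DFO, and the part of this was not tested either. In bulk RNA, fewer cells of a kind and less RNA per cell cannot be told apart. Gapdh, which every cell uses, was listed between 0.364 and 33.2 FPKM, beside Actb between 929 and 2283. A value at or near 0 is therefore given only as listed, and so are orders and ratios between different genes.

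Receptors of the semaphorin system were the most abundant members in siControl. Plxnb2, a plexin that binds class 4 semaphorins, had the highest level, with 76.4, 62.8 and 60.3 FPKM in the 3 siControl libraries, 57.1, 47.3 and 52.3 in siNCOA4, 87.2, 100.0 and 95.4 in siControl+DFO and 83.4, 84.8 and 67.2 in siNCOA4+DFO. In siControl it stood clear of Plxna1, the next in order (mean 41.9 FPKM), whereas Plxna1 and Nrp2 (mean 41.4) overlapped. Nrp2 stood clear of Nrp1 (mean 23.4), which overlapped with Ephb4 (mean 22.5). Ephb4 in turn stood clear of Slit2 (mean 14.4). From Slit2 down to Plxna3 (mean 4.82), 16 members followed in an order in which no neighbours were separated by their replicates. The highest ligand in siControl was Slit2, followed by Efnb2 (mean 12), Sema5a (mean 11.2), Sema3a (mean 10.8), Sema3f (mean 9.86) and Sema3c (mean 9.45).

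**Figure D1:**
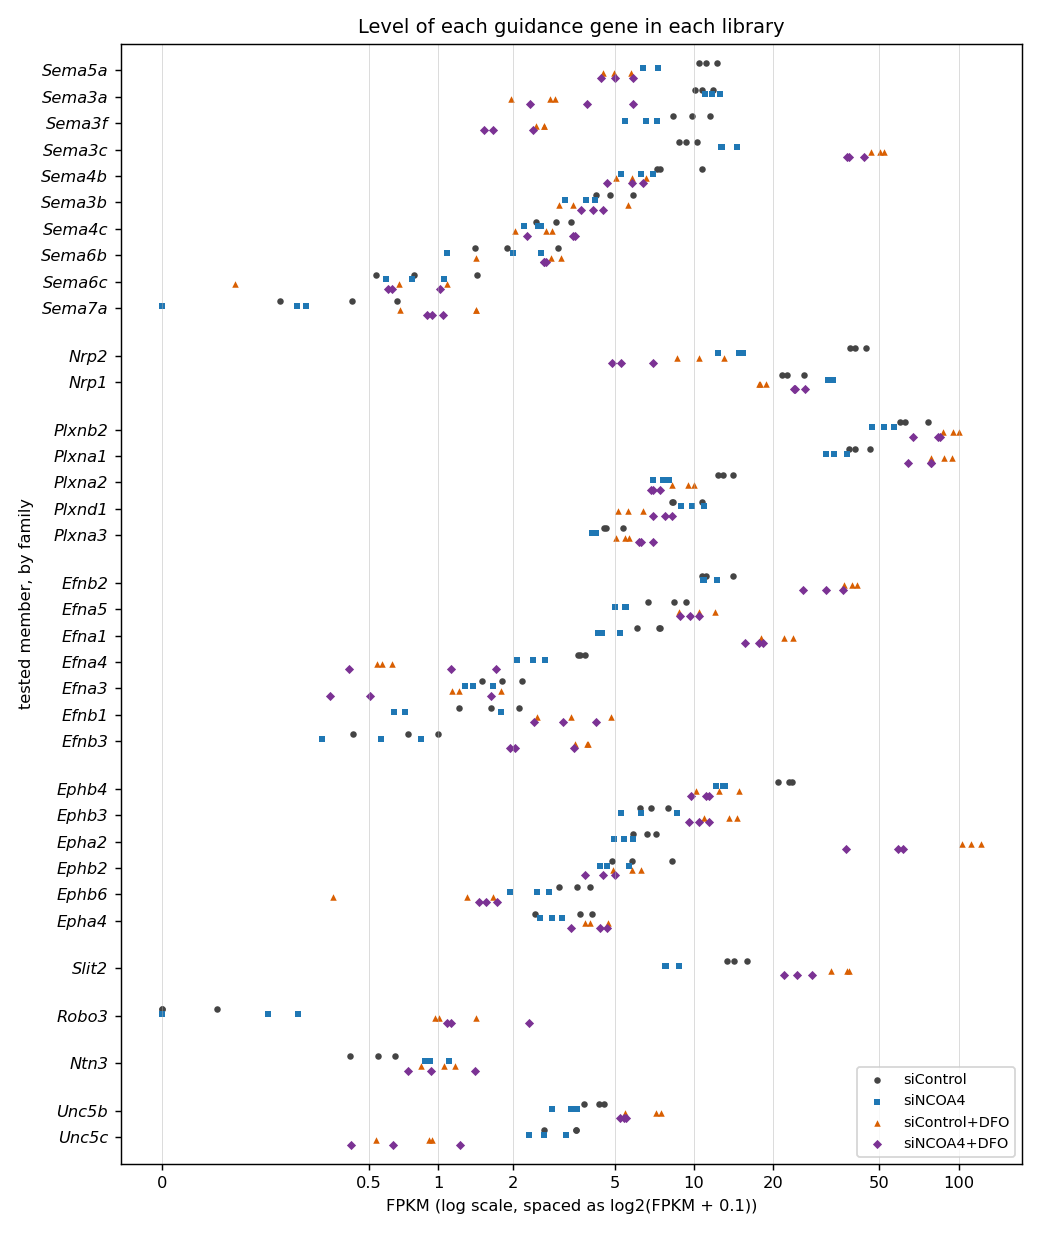
Level of each of the 35 tested guidance genes in each of the 12 libraries, in FPKM on a log axis (spaced as log2(FPKM + 0.1)), grouped by family, with 1 point per library and 1 marker shape and colour per group. Epha2 spans the widest distance among the abundant members, from 4.95 to 122 FPKM, and Plxnb2 has the highest siControl level.

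The families were unevenly filled. Of 20 semaphorins 10 were tested, of 9 plexins 5, of 8 ephrins 7 and of 14 Eph receptors 6, as well as both neuropilins. Robos and netrins were low. Slit2 was the tested member of 3 Slits, but Robo1 and Robo4 were listed at 0 in all libraries, and Robo3, the tested member of 4 Robos, was close to 0 in siControl. Dcc was also listed at 0 throughout, and of 4 netrins the highest was Ntn3, below 1.5 FPKM in each library. Of the 34 members that were not tested, 6 were at 0 in all libraries and 28 had some value, the highest being 0.706 FPKM for Sema3g. Among tested members, 26 reached the filter in all libraries and 9 did not. Just inside the filter, Robo3 reached 0.5 FPKM in 6 libraries, all of them treated with DFO, and Sema7a in 7. Just outside it, Sema3g reached it in 2, with 0.518 and 0.706 FPKM in siControl+DFO. Robo3 thus passed through the groups in which it was high and had to differ. Without its DFO libraries Sema7a would not have passed either.

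DFO in cells with control siRNA addressed the response to iron restriction, and it moved most tested members. Of 35, 13 rose and 12 fell at an adjusted p below 0.05 (limma with Benjamini-Hochberg adjustment over all tested genes), against 27.7% of all genes higher and 25.7% lower. With a fold above 2 as well, 16 members were called, 9 higher and 7 lower, against 18.8% of all genes. The 13 and the 9 include Robo3, which passed the filter through its DFO libraries alone and had to differ. The median log2 fold change was 0.16 over members and -0.01 over all genes. By family, 4 of 7 ephrins rose and 1 fell, 1 of 10 semaphorins rose and 4 fell, and both neuropilins fell. Differences between families were not tested.

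**Figure D2:**
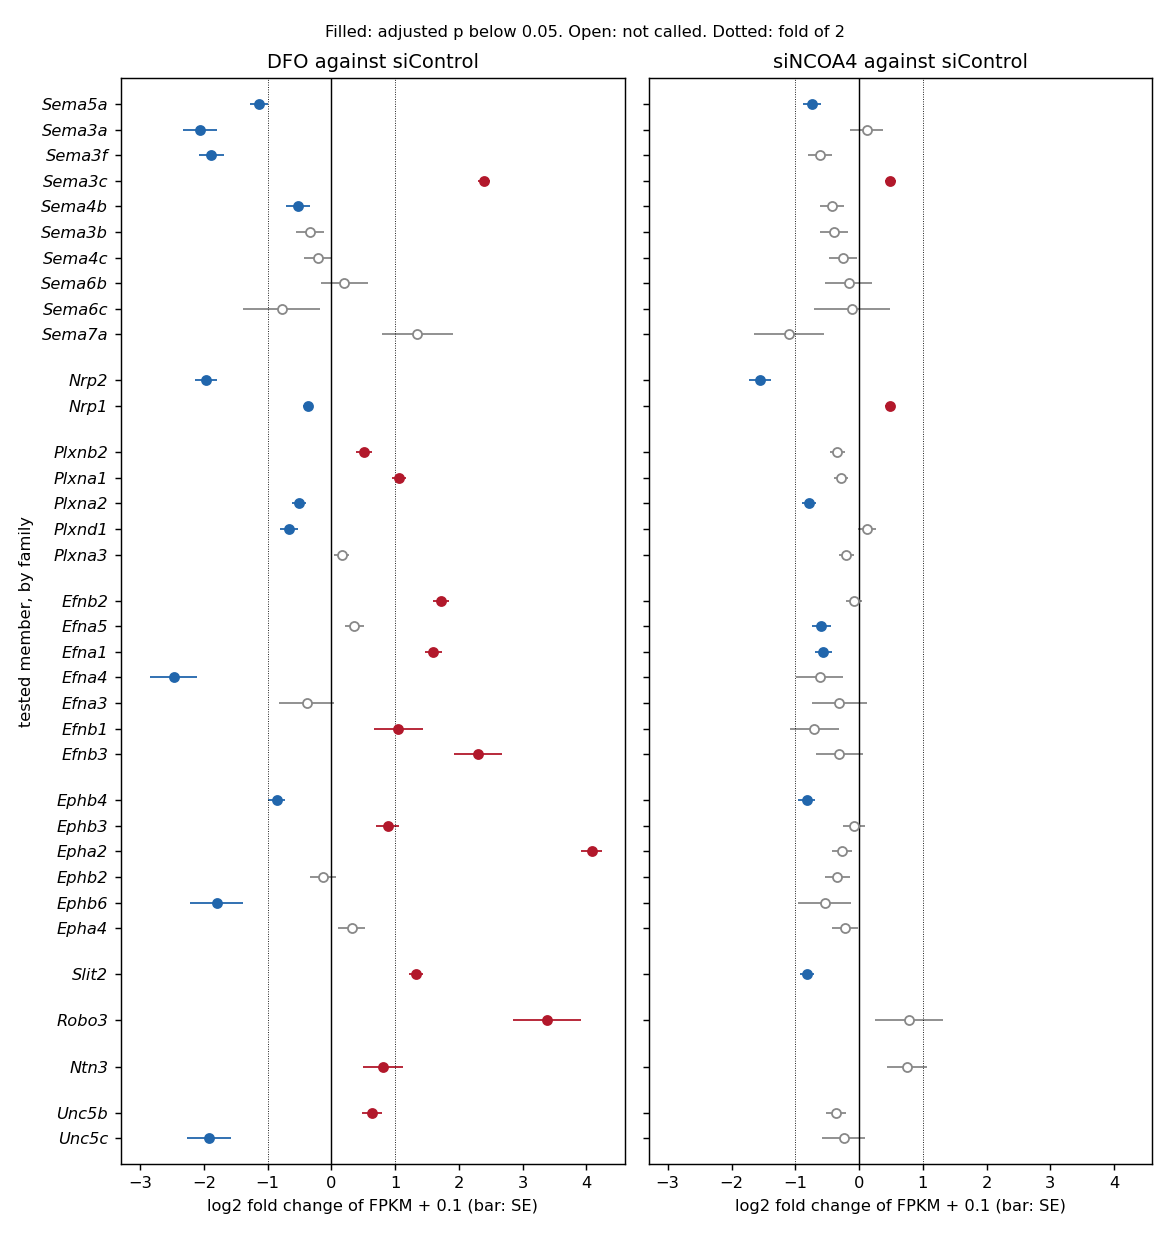
Log2 fold change of FPKM + 0.1 (x axis) with its SE for the 35 tested members by family, for DFO against siControl on the left and siNCOA4 against siControl on the right, where filled points passed an adjusted p of 0.05 and dotted lines mark a fold of 2. DFO moved members by -2.47 to 4.08, and siNCOA4 by -1.55 to 0.78, with Nrp2 as its only filled point beyond the dotted lines.

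Among the class 3 semaphorins, Sema3c rose while Sema3a and Sema3f fell. Sema3c, which binds both neuropilins, had 10.3, 9.32 and 8.76 FPKM in siControl, 12.8, 14.5 and 12.7 in siNCOA4, 46.6, 50.5 and 52.4 in siControl+DFO and 43.9, 38.1 and 38.6 in siNCOA4+DFO. All 6 DFO libraries lay above the other 6, with no overlap between any pair of groups. DFO raised it by 2.39 ± 0.09 on the log2 scale (± SE here and below, n = 3 libraries per group), with adjusted p = 3.08e-09 by limma. Sema3a, a repellent that signals mainly through Nrp1, had 11.8, 10.1 and 10.7 FPKM in siControl, 11.7, 12.6 and 11 in siNCOA4, 2.80, 1.96 and 2.92 in siControl+DFO and 2.33, 3.90 and 5.83 in siNCOA4+DFO. The DFO libraries were all below those at normal iron, and the siNCOA4+DFO libraries were spread the widest. Its change with DFO was -2.06 ± 0.26, with limma's adjusted p = 3.58e-05. Sema3f, which signals mainly through Nrp2, had 11.5, 9.78 and 8.34 FPKM in siControl, 5.46, 6.54 and 7.20 in siNCOA4, 2.47, 2.66 and 2.65 in siControl+DFO and 1.54, 1.67 and 2.39 in siNCOA4+DFO. The 4 groups did not overlap, and the change with DFO was -1.88 ± 0.19 (adjusted p = 5.03e-06, limma).

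As a result, the ratio of Sema3c to Sema3a passed from 0.821 to 0.924 in siControl to 16.7 to 25.8 in siControl+DFO. The ratio of Sema3c to Sema3f passed from 0.894 to 1.05 to 18.9 to 19.8. These ratios were taken within each library and were not tested.

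Sema5a, a transmembrane semaphorin with thrombospondin repeats, was another member that fell with DFO. It had 12.2, 10.4 and 11.1 FPKM in siControl, 6.38, 7.29 and 6.40 in siNCOA4, 4.50, 4.93 and 5.73 in siControl+DFO and 4.41, 4.97 and 5.87 in siNCOA4+DFO. The siControl libraries lay above all others, and both DFO groups overlapped. The change with DFO was -1.14 ± 0.14 (adjusted p = 2.81e-05, limma). Sema7a, anchored by a lipid and known for promoting axon growth through integrins, was low, with 0.418, 0.666 and 0.178 FPKM in siControl, 0, 0.248 and 0.222 in siNCOA4, 0.689, 1.42 and 1.42 in siControl+DFO and 0.940, 1.04 and 0.900 in siNCOA4+DFO. All DFO libraries were above all others, but the fold rests on 2 to 8 fragments per siControl library, and with DFO alone the difference of 1.35 ± 0.55 did not pass (adjusted p = 0.055, limma). Sema4b fell by 0.52 (adjusted p = 0.0339, limma), and Sema3b, Sema4c, Sema6b and Sema6c were not called.

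Neuropilins, the binding subunits for the secreted semaphorins, both fell with DFO, to different extents. Nrp2 (chr1:62703317-62818692, GRCm38) had 44.8, 38.8 and 40.6 FPKM in siControl, 15.3, 12.3 and 14.8 in siNCOA4, 8.60, 10.4 and 13 in siControl+DFO and 5.28, 4.84 and 6.99 in siNCOA4+DFO. Every siControl library was far above every other library, the siNCOA4+DFO libraries were the lowest, and siNCOA4 and siControl+DFO overlapped at a level in between. DFO lowered Nrp2 3.91-fold (-1.97 ± 0.17 on the log2 scale, adjusted p = 1.16e-06, limma). Nrp1 had 26, 22.5 and 21.6 FPKM in siControl, 32.7, 33.7 and 32.1 in siNCOA4, 17.7, 17.8 and 18.7 in siControl+DFO and 24.1, 26.3 and 24.0 in siNCOA4+DFO. In siControl+DFO it was below siControl in all 3 libraries, by a smaller change of -0.37 ± 0.08 (adjusted p = 0.00238, limma), while siNCOA4 libraries were the highest.

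**Figure D3:**
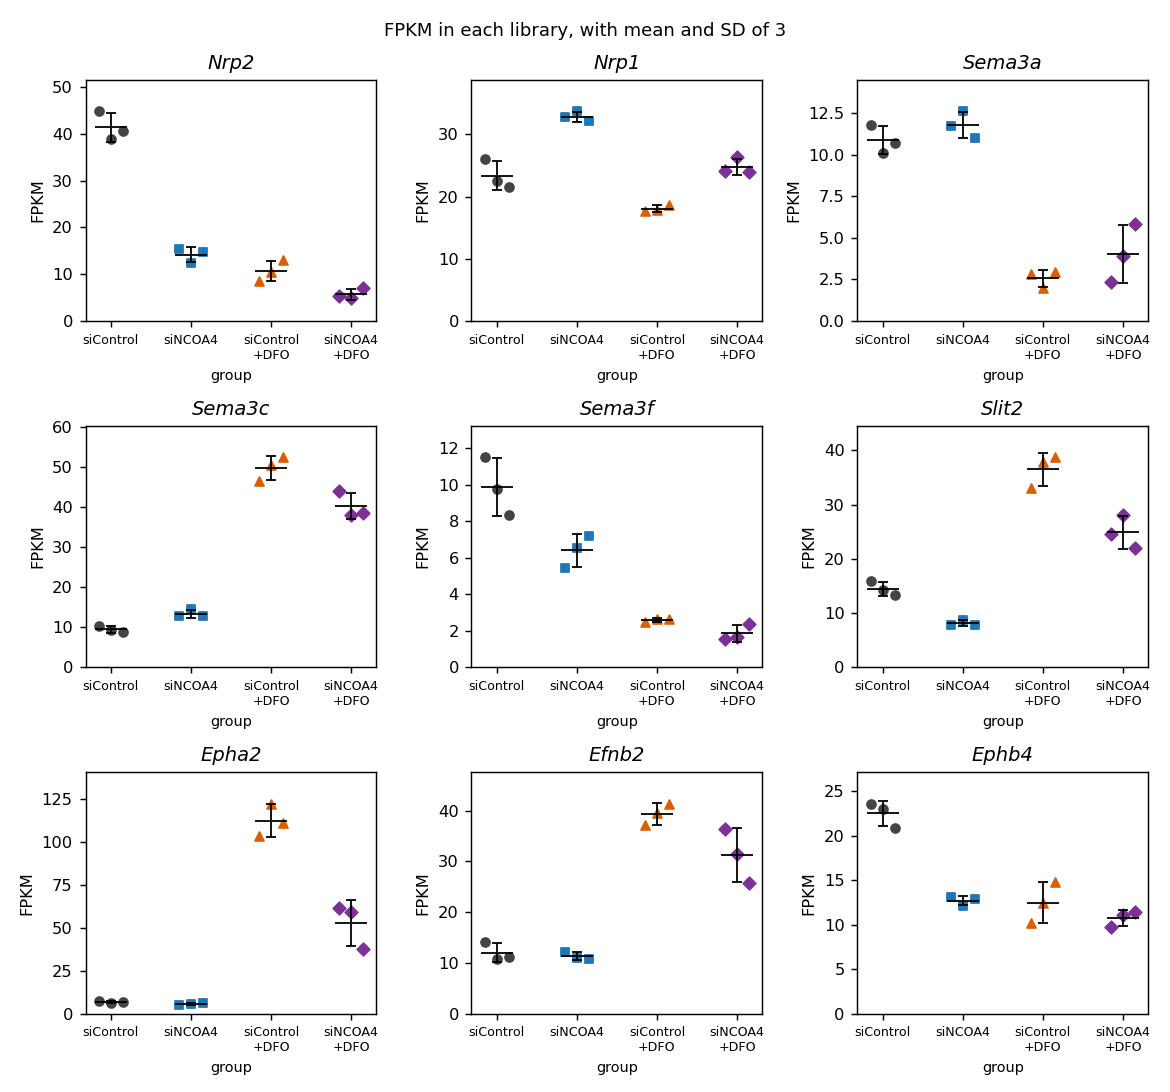
FPKM in each of the 12 libraries (y axes from 0, 1 point per library) for 9 members, by group on the x axis, with the mean as a dash and the SD of 3 libraries as a bar. Nrp2 falls from 38.8 to 44.8 FPKM in siControl to 4.84 to 6.99 in siNCOA4+DFO, and Epha2 rises from 5.85 to 7.16 in siControl to 103 to 122 in siControl+DFO.

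Plexins split. Plxna1, a signalling partner of neuropilins, had 46.4, 40.7 and 38.6 FPKM in siControl, 38.1, 31.6 and 34.0 in siNCOA4, 78.6, 94.6 and 88.5 in siControl+DFO and 78.7, 78.9 and 64.6 in siNCOA4+DFO. The DFO libraries were all higher than those at normal iron, with a change of 1.06 ± 0.11 in siControl (adjusted p = 6.27e-06, limma). Of its exon bases 10.7% overlap the antisense gene Gm26811, and whether the counting used strand was not given in the sources used here. Plxnb2 rose by 0.51 ± 0.12 (adjusted p = 0.00287, limma), whereas Plxna2 changed by -0.51 (adjusted p = 0.002, limma) and Plxnd1, a receptor known from blood vessels, by -0.66 (adjusted p = 0.00184, limma).

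Epha2 showed the largest change with DFO of the 26 members at or above the filter in all libraries. Epha2 (chr4:141301221-141329384), the main receptor for ephrin-A1 in epithelia and many cell lines, had 7.16, 5.85 and 6.63 FPKM in siControl, 4.95, 5.40 and 5.87 in siNCOA4, 103, 122 and 111 in siControl+DFO and 61.5, 59.0 and 37.5 in siNCOA4+DFO. Both DFO groups were above all libraries at normal iron and were separate from each other. The rise with DFO was 16.9-fold, or 4.08 ± 0.16 on the log2 scale (adjusted p = 3.44e-09, limma). In siControl, Epha2 ranked among the middle of the members, and in siControl+DFO its mean exceeded that of Plxnb2. Its ligand Efna1 moved the same way, with 7.33, 7.39 and 6.06 FPKM in siControl, 4.30, 4.44 and 5.21 in siNCOA4, 18, 22.0 and 23.7 in siControl+DFO and 17.6, 18.2 and 15.6 in siNCOA4+DFO. All DFO libraries were higher than all others, and the rise was 1.60 ± 0.13 (adjusted p = 1.04e-06, limma).

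The neighbouring ephrin-A genes did not follow Efna1. Efna1, Efna3 and Efna4 lie in a row on chromosome 3, with 32947 bases between the first pair and 10453 between the second. Efna4 had 3.83, 3.59 and 3.66 FPKM in siControl, 2.07, 2.67 and 2.40 in siNCOA4, 0.638, 0.543 and 0.575 in siControl+DFO and 0.406, 1.13 and 1.71 in siNCOA4+DFO. It was lower in every DFO library than in any other, with a change of -2.47 ± 0.37 (adjusted p = 1.34e-04, limma), the largest fall among members with DFO. Efna3 had 1.51, 2.17 and 1.81 FPKM in siControl, 1.39, 1.67 and 1.29 in siNCOA4, 1.14, 1.22 and 1.80 in siControl+DFO and 1.64, 0.506 and 0.328 in siNCOA4+DFO. These levels overlapped throughout and correspond to between 1 and 9 fragments per library. Of the exon bases, 14.1% of Efna3 and 10.5% of Efna4 overlap an antisense gene.

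All 3 ephrin-B genes rose with DFO. Efnb2 had 14.1, 10.7 and 11.1 FPKM in siControl, 12.2, 10.9 and 10.8 in siNCOA4, 37.1, 39.5 and 41.4 in siControl+DFO and 36.5, 31.5 and 25.8 in siNCOA4+DFO. The DFO groups did not overlap with those at normal iron, and the rise was 1.72 ± 0.13 (adjusted p = 6.00e-07, limma). Efnb3 had 0.745, 0.424 and 1.00 FPKM in siControl, 0.570, 0.843 and 0.302 in siNCOA4, 3.51, 3.93 and 3.89 in siControl+DFO and 3.45, 2.04 and 1.95 in siNCOA4+DFO. Efnb1 had 1.63, 2.11 and 1.22 FPKM in siControl, 1.79, 0.725 and 0.649 in siNCOA4, 2.49, 4.81 and 3.37 in siControl+DFO and 4.21, 3.13 and 2.41 in siNCOA4+DFO. For both, each DFO library was above each library at normal iron. Efnb3 rose by 2.30 ± 0.37 and Efnb1 by 1.05 ± 0.38 (adjusted p = 2.20e-04 and 0.0336, limma).

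Receptors of the B class moved apart. Ephb4, the receptor specific for ephrin-B2, had 23.6, 23.0 and 20.9 FPKM in siControl, 13.1, 12.1 and 12.9 in siNCOA4, 10.2, 12.4 and 14.8 in siControl+DFO and 9.77, 11.1 and 11.4 in siNCOA4+DFO. The siControl libraries were above all others, and the 3 remaining groups lay close together. DFO lowered it by -0.86 ± 0.13 (adjusted p = 1.08e-04, limma), so that the ratio of Efnb2 to Ephb4 passed from 0.467 to 0.596 in siControl to 2.80 to 3.66 in siControl+DFO. Ephb6, an Eph receptor without kinase activity, had 3.98, 3.03 and 3.55 FPKM in siControl, 2.49, 1.94 and 2.76 in siNCOA4, 0.341, 1.67 and 1.31 in siControl+DFO and 1.47, 1.73 and 1.56 in siNCOA4+DFO. It was lowest in the DFO groups, with a change of -1.80 ± 0.41 (adjusted p = 0.00277, limma) that was -1.19 without siControl+DFO replicate 1. Ephb3 rose by 0.88 ± 0.18 (adjusted p = 0.00124, limma), and Epha4 and Ephb2 were not called.

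Slit2 rose with DFO. Slit2 (chr5:47981291-48307735), a secreted repellent of the Robo receptors, had 15.9, 14.2 and 13.3 FPKM in siControl, 7.78, 8.78 and 7.80 in siNCOA4, 33.0, 37.8 and 38.7 in siControl+DFO and 24.5, 28.1 and 22.0 in siNCOA4+DFO. The 4 groups did not overlap. The rise was 1.33 ± 0.11 (adjusted p = 1.13e-06, limma). Robo3, a Robo family member known from commissural axons, had 0, 0 and 0.0609 FPKM in siControl, 0, 0.226 and 0.152 in siNCOA4, 1.01, 1.43 and 0.970 in siControl+DFO and 2.31, 1.13 and 1.08 in siNCOA4+DFO. Recovered from the FPKM steps, that is 1 fragment over the siControl libraries and 56 over siControl+DFO. As Robo3 passed the filter through its DFO libraries alone and had to differ, no ratio is drawn from these counts. Its fitted log2 change of 3.38 depended on the pseudocount, from 1.06 with a pseudocount of 1 to 5.88 with 0.01.

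Netrin pathway members were low. Ntn3 had 0.550, 0.658 and 0.411 FPKM in siControl, 1.11, 0.926 and 0.876 in siNCOA4, 0.842, 1.05 and 1.17 in siControl+DFO and 0.929, 0.743 and 1.41 in siNCOA4+DFO. The siControl libraries were the lowest, and the difference with DFO of 0.81 ± 0.31 was close to the threshold (adjusted p = 0.0436, limma) and lost its call in 13 of 21 settings. The Unc5 receptors, which mediate repulsion by netrins, moved in opposite directions. Unc5b had 4.51, 3.78 and 4.34 FPKM in siControl, 3.36, 2.85 and 3.56 in siNCOA4, 5.44, 7.46 and 7.13 in siControl+DFO and 5.19, 5.51 and 5.41 in siNCOA4+DFO. Unc5c had 3.52, 2.66 and 3.52 FPKM in siControl, 2.65, 3.22 and 2.32 in siNCOA4, 0.942, 0.540 and 0.910 in siControl+DFO and 0.639, 0.415 and 1.23 in siNCOA4+DFO. DFO libraries were the highest for Unc5b and the lowest for Unc5c, with no overlap. Unc5b rose by 0.64 ± 0.16 and Unc5c fell by 1.92 on the log2 scale (adjusted p = 0.00397 and 5.06e-04, limma).

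Ncoa4 siRNA at normal iron addressed the need for NCOA4 when iron is not restricted. The study used a single Ncoa4 siRNA, so loss of NCOA4 and effects of that sequence on other transcripts cannot be told apart. The changes below are those with this siRNA. The siRNA lowered more tested members than it raised: 2 of 35 rose and 7 fell, against 4.52% of all genes higher and 7.21% lower. The median log2 fold change was -0.31 over members and 0.00 over all genes. Only Nrp2 was called with a fold above 2, against 1.78% of all genes. Nrp2 was 2.93-fold lower (-1.55 ± 0.17, adjusted p = 1.29e-04, limma), and Nrp1 rose by 0.49 ± 0.08 (adjusted p = 0.00259, limma). The ratio of Nrp2 to Nrp1 was 1.73 to 1.88 in siControl and 0.364 to 0.468 in siNCOA4, so that the more abundant neuropilin changed from Nrp2 to Nrp1. It was 0.487 to 0.696 in siControl+DFO and 0.184 to 0.291 in siNCOA4+DFO.

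Of the other members, Sema3c rose by 0.49 ± 0.09 with siNCOA4 (adjusted p = 0.00577, limma), while Sema3a differed by 0.12 ± 0.26 and did not pass (adjusted p = 0.829, limma). Slit2 and Ephb4 each changed by -0.82 (adjusted p = 6.18e-04 and 0.00164, limma). Plxna2 changed by -0.79, Sema5a by -0.74, Efna5 by -0.59 and Efna1 by -0.56, with adjusted p of 7.19e-04, 0.00598, 0.0241 and 0.0175 in the same order. The calls of Efna1 and Efna5 were lost when 1 of several libraries was left out. Epha2, so high with DFO, differed by -0.27 ± 0.16 and was not called (adjusted p = 0.327, limma). Since the same siControl libraries serve this comparison and that of DFO, the changes are not independent.

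With DFO present, siNCOA4 lowered 5 tested members and raised 1, relative to siControl+DFO, against 10.2% of all genes lower and 6.22% higher. The member median was -0.14 and that of all genes -0.01. With a fold above 2, Epha2 was called, against 2.09% of all genes. It was 2.18-fold lower (-1.12 ± 0.16, adjusted p = 0.00119, limma), and without siNCOA4+DFO replicate 3 the difference was -0.89. Nrp2 changed by -0.89 ± 0.17, Slit2 by -0.56 ± 0.11 and Nrp1 by 0.46 ± 0.08 (adjusted p = 0.00426, 0.00623 and 0.0036, limma), in the directions seen at normal iron. Plxna2 changed by -0.37 and Sema3c by -0.31, with adjusted p of 0.039 and 0.0415. Both calls were lost with a replicate block (adjusted p = 0.0586 and 0.0636), and in 9 and 13 of 22 alternative settings.

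The interaction asked whether the effect of siNCOA4 differed with and without DFO. Of 35 members 1 passed, Sema3c, against 2.1% of all genes. The effect of siNCOA4 on Sema3c was 0.49 at normal iron and -0.31 with DFO, a difference of -0.81 ± 0.13 (adjusted p = 0.0136, limma). The next members in order of p were Sema5a, Epha2 and Ephb4, with differences of 0.74 ± 0.20, -0.85 ± 0.23 and 0.62 ± 0.18 that did not pass (adjusted p = 0.0753, 0.078 and 0.0919, limma). For Nrp2 the difference was 0.66 ± 0.23 (adjusted p = 0.156), and for Slit2 it was 0.26 ± 0.16 (adjusted p = 0.412). A difference between iron states was thus shown for Sema3c alone among the tested members.

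**Figure D4:**
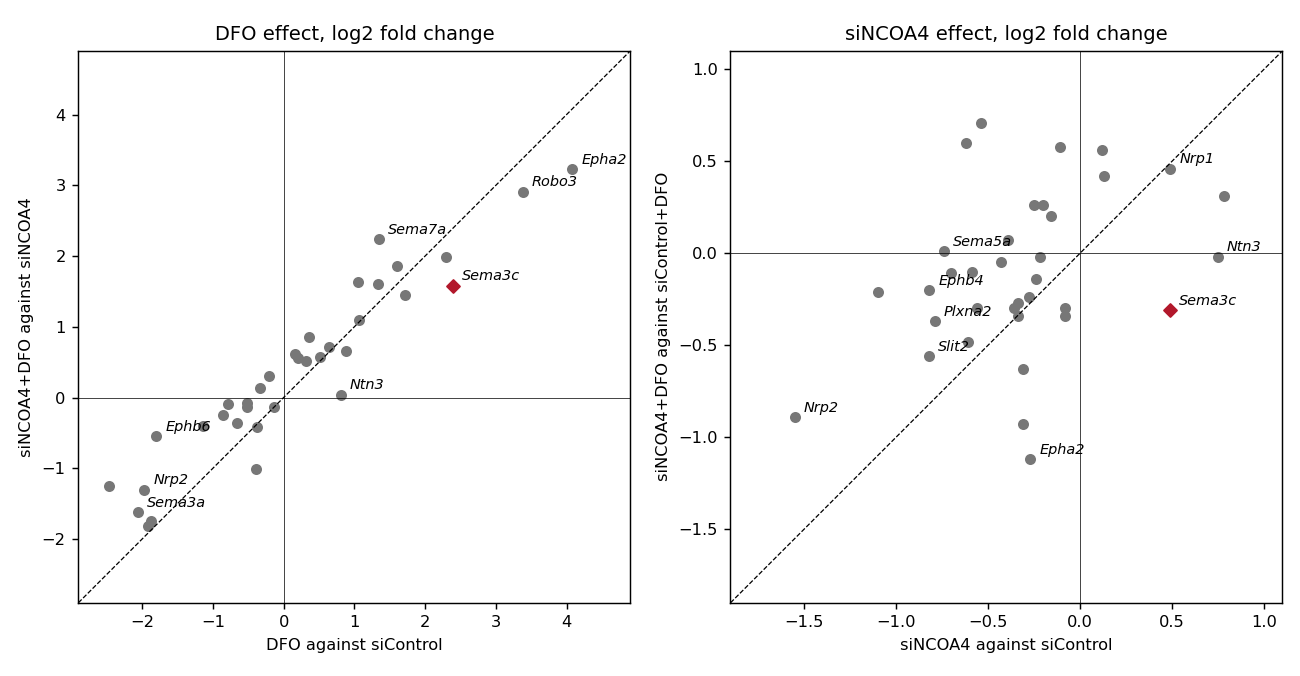
Log2 fold change of each of the 35 tested members (1 point each) for DFO without (x) and with (y) Ncoa4 siRNA on the left, and for Ncoa4 siRNA without (x) and with (y) DFO on the right. The dashed line marks equal effects, and the red diamond is Sema3c, whose siNCOA4 effects of 0.49 and -0.31 differed by the interaction test.

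In cells with Ncoa4 siRNA, DFO raised 15 members and lowered 7, against 23.1% of all genes higher and 19.6% lower, with a member median of 0.30 and an all-gene median of 0.00. A fold above 2 at an adjusted p below 0.05 was reached by 15 members, against 11.4% of all genes. The 15 raised and the 15 with such a fold include Robo3, which had to differ. They also include Sema7a, whose call followed in part from the filter. This comparison shares no library with that of DFO in siControl cells. Both were tested with the same estimate of the spread per gene, from all 12 libraries, so their calls are not fully independent. Of the 25 members called in siControl cells and the 22 called here, 19 were common to both with the same direction and 0 went in opposite directions. Over all genes, 0.168% were called in opposite directions. These 19 were 54.3% of the tested members, against 35.3% of all genes called in both with the same direction, and without Robo3, which could only rise, they were 18. Of the 19, 12 rose in both (Efna1, Efnb1, Efnb2, Efnb3, Epha2, Ephb3, Plxna1, Plxnb2, Robo3, Sema3c, Slit2 and Unc5b) and 7 fell in both (Efna4, Nrp1, Nrp2, Sema3a, Sema3f, Sema5a and Unc5c). Epha2 rose 9.38-fold, Sema3c 3.00-fold and Slit2 3.02-fold, whereas Nrp2 was 2.47-fold and Sema3a 3.07-fold lower. Called here but not with control siRNA were Efna5 (0.85 ± 0.15) and Plxna3 (0.62 ± 0.12), with adjusted p of 6.36e-04 and 0.00155 (limma). Sema7a (2.24 ± 0.55) was called as well, with 0, 3 and 3 fragments in siNCOA4. It passed the filter only with its DFO libraries, so that its call followed in part from the filter. Its fitted change was 0.77 to 3.52 over the alternatives that keep all libraries. None of these 3 passed the interaction test.

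The combined treatment, siNCOA4+DFO against siControl, raised 10 members and lowered 11, against 25.4% of all genes higher and 23.4% lower. The medians were 0.24 for members and 0.01 for all genes. With a fold above 2, 15 members were called, 6 higher and 9 lower, against 15.2% of all genes. The 10 raised and the 6 include Robo3, which had to differ. Nrp2 was 7.23-fold lower (-2.85 ± 0.17, adjusted p = 8.74e-08, limma), the largest fall among members in any of the 5 comparisons of groups. Sema3f was 5.11-fold lower (adjusted p = 1.13e-06), and Epha2 was 7.78-fold higher (adjusted p = 6.17e-08). Nrp1 differed by 0.09 ± 0.08 and did not pass (adjusted p = 0.4, limma). Slit2 was 1.71-fold and Plxna1 1.76-fold higher (adjusted p = 1.08e-04 and 5.96e-05). Efna3 was called 2.49-fold lower (adjusted p = 0.0236), although 1 of its siNCOA4+DFO libraries lay within the siControl range. Across all 6 comparisons, 29 of the 35 members (82.9%) were called at least once, against 68.6% of all genes, and Epha4, Ephb2, Sema3b, Sema4c, Sema6b and Sema6c were not. The 29 include Robo3, which had to differ, and Sema7a, whose only call followed in part from the filter.

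Transcripts of proteins that carry guidance signals to the cytoskeleton moved in both directions. Of 70 such genes 61 were tested, and with DFO 18 rose and 21 fell, with a median log2 change of 0.00, against 27.7% of all genes higher and 25.7% lower. The largest rises were Rnd1 (2.87 ± 0.15), which binds plexins, Abl2 (2.28 ± 0.11), a kinase acting on actin, and Micall1 (1.63 ± 0.12), an adaptor of membrane traffic. The largest falls were Kalrn (-1.30 ± 0.16), Ablim1 (-1.20 ± 0.12) and Pak1 (-1.08 ± 0.12), which act on the actin cytoskeleton. With siNCOA4 at normal iron 3 rose (Adam10 by 0.40, Dpysl3 by 0.36 and Arhgap35 by 0.34) and 8 fell, with a median of -0.03, against 4.52% of all genes higher and 7.21% lower. The falls were led by Cfl2 (-2.11 ± 0.18, adjusted p = 2.45e-05, limma), an actin depolymerising protein, with Vasp (-0.79 ± 0.13) and Srgap3 (-0.72 ± 0.19) next. With siNCOA4 under DFO 4 rose and 13 fell, against 6.22% of all genes higher and 10.2% lower, and Cfl2 changed by -1.21 ± 0.18. The interaction was called for 3.28% of the 61, against 2.1% of all genes. These were Pak3 (0.72 ± 0.16) and Dpysl3 (-0.66 ± 0.12), a member of the collapsin response mediators, which act downstream of Sema3a. Sema3a itself did not pass the interaction test (adjusted p = 0.585, limma).

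Of 63 other guidance cues, adhesion molecules and receptors, 26 were tested. With DFO 9 rose and 9 fell, with a median log2 change of 0.06, against the same 27.7% and 25.7% of all genes. L1cam, an axonal adhesion molecule, had a mean of 0.0519 FPKM in siControl and 0.826 in siControl+DFO, passed the filter only through DFO-treated groups and so had to differ, and its fitted change was 0.79 to 4.32 by pseudocount. Vegfa, which also binds neuropilins, changed by 2.11 ± 0.09 from a mean of 23.8 to 103 FPKM. The falls were led by Rgma (-2.36 ± 0.21), a repulsive ligand of Neo1, by Figf, or VEGF-D (-1.32 ± 0.10) and by the Wnt receptor Ryk (-1.21 ± 0.10). With siNCOA4 at normal iron the median was -0.15, and 0 rose and 3 fell, against 4.52% and 7.21% of all genes, namely Gpc1 (-0.98 ± 0.14), Neo1 (-0.46 ± 0.11) and Vegfa (-0.34 ± 0.09).

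Several members below the filter still showed values in whole fragments. Slit1 had 0 fragments in all 6 libraries at normal iron, 4, 7 and 2 in siControl+DFO and 3, 10 and 2 in siNCOA4+DFO. As Slit1 was picked for this pattern and had no fragment in siControl, no ratio is drawn from its counts. Ntn1, the founding netrin, had 7, 5 and 8 fragments in siControl, 8, 4 and 2 in siNCOA4, 1, 1 and 0 in siControl+DFO and 0, 1 and 1 in siNCOA4+DFO. Sema3g had 0, 1 and 1 in siControl, 2, 7 and 9 in siControl+DFO and 0, 1 and 1 in siNCOA4+DFO. With no filter on low values, Slit1, Ntn1, Sema3g and Efna2 were called for DFO against siControl. They were named after their values had been seen, and their fitted changes depend on the pseudocount and are not given. Of the 3 matched names that are not guidance genes, Unc50 was tested and was not called in any comparison.

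Promoter windows of 300 bases (250 before to 50 after a RefSeq start, GRCm38.p6) were given for 31 of the 35 tested members, in 38 windows. They were searched on both strands for ACGTG or GCGTG, the core letters of the element bound by hypoxia-inducible factors, whose hydroxylases need iron. These letters can overlap CACGTG, bound by other factors. At least 1 match was held by 26 windows, or 68.4%, against 43.8% of all 32851 windows and 62.6% of the windows of genes past the filter. The median GC content was 66.8% in members' windows, 52.7% in all and 60.7% in those of genes past the filter. A match describes the letters only, and no test was made. Shown are the windows of the members with the largest rises among the abundant genes (Epha2 and Sema3c), of Slit2 and of Nrp2, each in the direction of its gene, with the matched letters in capitals. The window of Epha2 is chr4:141300971-141301270, that of Sema3c chr5:17574566-17574865, that of Slit2 chr5:47982905-47983204 and that of Nrp2 chr1:62703067-62703366, all on the plus strand.
Epha2: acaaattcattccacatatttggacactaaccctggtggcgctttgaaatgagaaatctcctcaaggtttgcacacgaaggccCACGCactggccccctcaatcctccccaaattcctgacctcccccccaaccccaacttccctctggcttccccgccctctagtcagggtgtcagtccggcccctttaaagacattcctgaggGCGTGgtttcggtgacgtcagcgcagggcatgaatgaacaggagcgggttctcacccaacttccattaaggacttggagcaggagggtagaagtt
Sema3c: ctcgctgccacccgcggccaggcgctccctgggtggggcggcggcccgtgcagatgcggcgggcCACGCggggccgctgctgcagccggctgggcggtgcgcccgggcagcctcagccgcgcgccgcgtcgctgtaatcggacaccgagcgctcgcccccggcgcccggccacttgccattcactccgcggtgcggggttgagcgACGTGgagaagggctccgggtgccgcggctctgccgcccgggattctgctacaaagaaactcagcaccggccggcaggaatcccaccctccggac
Slit2: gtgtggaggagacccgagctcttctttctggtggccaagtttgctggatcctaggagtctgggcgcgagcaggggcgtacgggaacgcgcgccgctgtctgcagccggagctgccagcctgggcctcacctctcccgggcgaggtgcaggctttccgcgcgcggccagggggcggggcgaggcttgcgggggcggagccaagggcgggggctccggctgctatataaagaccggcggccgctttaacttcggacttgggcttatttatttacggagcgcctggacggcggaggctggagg
Nrp2: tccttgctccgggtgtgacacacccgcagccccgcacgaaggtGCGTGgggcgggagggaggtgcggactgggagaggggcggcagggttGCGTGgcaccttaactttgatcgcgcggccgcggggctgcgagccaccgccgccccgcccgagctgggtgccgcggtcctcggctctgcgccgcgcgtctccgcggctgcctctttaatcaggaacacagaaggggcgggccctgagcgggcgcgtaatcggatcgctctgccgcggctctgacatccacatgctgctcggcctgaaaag
The windows of Epha2, Sema3c and Nrp2 each held 2 matches and that of Slit2 held 0. The Slit2 window lies inside the gene, downstream of its listed first base 47981291. No window was given at that base, so it was not searched.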

How the data were processed

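Total RNA of 12 HT22 cultures was sequenced in pairs from strand-marking libraries. The authors deposited 1 FPKM value per gene and library. Per the labels, the submitters' processing notes name Trimmomatic 0.33, FastQC, HISAT2 2.1.0, featureCounts, edgeR and the build mm10. The program that computed FPKM and the annotation were not given in the sources used here. Of 24347 entries, 4 shared a name with another and were left out. Groups and replicate numbers came from the sample titles.

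The filter of 0.5 FPKM in at least 3 libraries left 11924 genes. Values were tested as log2(FPKM + 0.1) with limma 3.58.1 in R 4.3.3, with 1 mean per group over all 12 libraries and a mean-variance trend. The pseudocount understates the change of low genes. The Benjamini-Hochberg adjustment ran over all genes tested, separately for each comparison. The study's edgeR test on counts was not applicable to FPKM. Exact permutation tests were not used, since 3 libraries against 3 cannot give a two-sided p below 0.1. P-values rest on the spread between replicates within groups, pooled over all 4 groups and moderated across genes. The fit was also run on simulated data with independent normal noise and few changed genes. That setting differs from these data, so nothing about the calls is drawn from it.

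FPKM keep no total count. Relative depth and, for low genes, whole fragments were recovered from the steps between low values (tolerance 0.1 fragment). Gene coordinates and distances came from RefSeq (GRCm38) by symbol, and exon overlaps from GENCODE vM21 (GRCm38). Members and lists were chosen with earlier results of these data known. Values in every library were given for Nrp2, Sema3a, Slit2, each member called with a fold above 2 in any of the 5 comparisons of groups or in the interaction, and the highest member of each family. From each list of related genes, the 3 largest rises and falls among called genes were named for the comparisons described, except 1 gene that is not reported here. Members below the filter were named after their values had been seen. Alternatives were pseudocounts of 1 and 0.01, no filter or at least 2 FPKM, median-of-ratios and quantile scaling, the compared groups alone, no trend, robust moderation, a replicate block and leaving out each library. Python 3.11.15, numpy 2.4.6, pandas 2.3.3, scipy 1.17.1 and matplotlib 3.10.9 were used.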

Additional observations from a re-analysis of the deposited data

Results flagged for a closer look

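The effect of siNCOA4 on Sema3c differed between iron states by the interaction test, by -0.81 on the log2 scale (adjusted p = 0.0136, limma). Sema3c was higher in 3 of 3 siNCOA4 libraries than in all siControl libraries, and lower in 3 of 3 siNCOA4+DFO libraries than in all siControl+DFO libraries. The fall under DFO alone, of -0.31, lost its call in 13 of 22 settings and was -0.19 with quantile scaling. Under the alternatives that keep all libraries the difference lay between -0.81 and -0.72.

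Some members below the filter had a value in every library of a treated group while all siControl libraries were listed at 0. Slit1 had a mean of 0.237 FPKM in siControl+DFO and of 0.282 in siNCOA4+DFO. Robo2 had a mean of 0.101 FPKM in siControl+DFO, from 6, 1 and 1 fragments. Sema4f had a mean of 0.0855 FPKM in siNCOA4, from 3, 3 and 2 fragments. In the fit with no filter, Robo2 was not called for DFO (adjusted p = 0.0682, limma) and Sema4f was not called for siNCOA4 (adjusted p = 0.293, limma), both against siControl.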

How the results depend on the processing

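Of 84 changes of members called in any comparison, 70 kept their direction and their call in each setting in which they were fitted, 14 lost the call under at least 1 and 0 reversed. The 70 include those of Robo3, which had to differ, and that of Sema7a. Of 22 settings, 12 left out a library each. In all, 77 changes were fitted in each of the 22 and 7 in 21, since Robo3, Sema7a, Ntn3 and Efna3 were not tested at 2 FPKM and the interaction was not fitted on compared groups alone. The counts of called members moved little, except where few were called. Of the siNCOA4 effect under DFO with a fold above 2, the count was 1, but 2 with no filter (Sema3g added), 0 with quantile scaling (Epha2 at -0.99) and 1 to 3 when a library was left out. It was 2 without siControl+DFO replicate 1 (Nrp2 added), 3 without siNCOA4+DFO replicate 1 (Efna3 and Efna4 added), and 1 without siNCOA4+DFO replicate 3, when Nrp2 (-1.04) took the place of Epha2 (-0.89). At an adjusted p alone, that count of 6 was 4 to 9. The interaction, 1 member, ranged from 1 to 2, with Ephb4 added without siControl+DFO replicate 3 and Efna4 without siNCOA4+DFO replicate 1.

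Same-numbered libraries did not deviate together (r = -0.127 to 0.116, with 2 of 18 pairs over 0.1), so the numbers were not taken as a pairing. With the replicate block, 9, 25, 20, 4, 22 and 1 members were called in siNCOA4, DFO, the combination, siNCOA4 under DFO, DFO under siNCOA4 and the interaction. The block ended the calls of Ntn3 with DFO (adjusted p = 0.0687), Ephb6 in the combination (0.0507), and Plxna2 (0.0586) and Sema3c (0.0636) for siNCOA4 under DFO. The other calls that some setting ended were Efna1 and Efna5 with siNCOA4, Efnb1 and Sema4b with DFO, Efna3, Ephb3, Plxna3 and Sema4b in the combination, and Efna4 and Sema5a for DFO under siNCOA4. The cause of these losses was not tested. With no filter 63 members were tested and with at least 2 FPKM 30.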
